A study of Mus musculus with 768 samples.

Results

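The interstitial collagen genes examined here were the 30 collagen chain genes left when the chains of basement membrane, multiplexin and cartilage collagens (*Col4a1* to *Col4a6*, *Col15a1*, *Col18a1*, *Col2a1*, *Col9a1* to *Col9a3*, *Col10a1* and *Col11a2*) were taken out of the 44 rows named as collagen chains. The rule uses gene names and no measured value, and it was set with earlier results of these data known. The files hold 24490 endogenous genes. They were measured by single-cell RNA-seq (Smart-seq2, which reads whole transcripts of 1 sorted cell per well) in 768 wells of mammary tumor fibroblasts, 384 from each of 2 tumors. The mice were of the strain FVB/N-Tg(MMTVPyVT)634Mul/J, also called MMTV-PyMT, which forms mammary carcinomas because the MMTV promoter drives the polyoma middle T oncogene mainly in mammary epithelium. They were 14 weeks old. The labels name no treatment, and no mouse without the transgene was compared. Living cells negative for EpCAM, CD45, CD31 and NG2 had been sorted, so the sample rests on the absence of epithelial, immune, endothelial and pericyte surface proteins and not on a fibroblast marker. Cells of the 2 tumors were sorted into separate plates. Tumors served as replicates (n = 2), and tumor and plate cannot be told apart.

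Of the wells, 727 held at least 10000 reads outside the ERCC spike-ins and were kept (373 and 354 in tumors 1 and 2), with 10281 to 1190516 such reads. Cells were put into classes by 4 genes, none of them a collagen. A cell was called vascular by *Rgs5*, matrix by *Dcn* and Trf/Mia-high by the mean of *Trf* and *Mia*, where the highest of the 3 values on the log2(RPKM + 1) scale was at least 5 and exceeded the second by at least 2. RPKM scales the reads of a gene to the length of its model in kilobases and to a fixed total of mappable reads per cell, so levels of different genes can be set side by side. This gave 265 and 241 vascular cells in tumors 1 and 2, 84 and 82 matrix cells, and 6 and 17 Trf/Mia-high cells, and 32 cells had no class. Of the cells with a class, 24 exceeded the second value by less than 4, and 15 cells without one had a value of at least 5 but too small a lead.

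Collagens are secreted triple helices built from 3 chains, each from its own gene or from copies of the same one. Fibre-forming collagens of types I, III and V make up the tensile fibrils of connective tissue, beaded filaments of type VI surround cells, and fibril-associated collagens (FACITs, with interrupted triple helices) sit on the fibril surface. In carcinomas the interstitial collagens come mostly from fibroblasts, and their deposition stiffens the stroma. Mural cells of vessels also make them.

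The class labels were set against lists of 10 marker genes each. Each list also holds its class-setting gene or genes (*Rgs5*, *Dcn*, or *Trf* and *Mia*), so its mean is in part fixed by the class rule. The vascular list (among them *Notch3*, *Des* and *Mcam*) had a mean log2(RPKM + 1) of 8.13 and 8.04 in vascular cells and at most 1.58 elsewhere, and the matrix list (among them *Lum*, *Pdgfra* and *Fbln1*) had 8.11 and 7.24 in matrix cells and at most 1.91 elsewhere. Trf/Mia-high cells had 6.86 and 6.61 for their own list. They also carried epithelial markers at a mean of 2.09 and 2.05 (7 of 8 genes above 0 in each tumor), against at most 0.647 in the other classes. Glial markers stood at 3.24 and 2.90 (2 of 4 and 3 of 4 genes above 0), against at most 0.286 elsewhere. *Sox10*, a glial marker, is also in the Trf/Mia-high list. The number of genes above 0 did not set the class apart. In vascular cells 0 epithelial and 1 glial marker were at 0 in each tumor. In matrix cells 1 and 0 epithelial and 2 and 1 glial markers were at 0. The class is therefore called here only by its genes. All 6 endothelial and all 6 immune markers were at 0 in its cells from tumor 1, and 4 of 6 and 5 of 6 in those from tumor 2, where the highest reached 7.94 RPKM. In vascular cells 1 endothelial marker reached 62.7 and 120.5 RPKM and 1 adipocyte marker 506 and 525 RPKM, with 4 and 2 of the 6 endothelial and 3 and 2 of the 4 adipocyte markers at 0. The median share of ERCC reads was 13.5% in vascular, 6.23% in matrix and 5.99% in Trf/Mia-high cells. The part of these differences in the results below was not tested, except where spike-in scaling or the removal of wells with an *Epcam* read is named.

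Windows of 250 bases before the transcription start were found in RefSeq for 24 of the 30 genes (GRCm38.p6, the assembly of mm10). They are printed for 4 chains, chosen after their values were seen, whose levels in matrix and vascular cells compared differently: *Col1a2* and *Col3a1*, which were higher, *Col6a3*, which was close to equal, and *Col5a3*, which was on the lower side. Capitals mark matches to the CCAAT box on either strand, to the TATA box spelled TATAAA on the given strand, and to the GC box spelled GGGCGG on either strand.
*Col1a2* chr6:4505368-4505617 (plus strand): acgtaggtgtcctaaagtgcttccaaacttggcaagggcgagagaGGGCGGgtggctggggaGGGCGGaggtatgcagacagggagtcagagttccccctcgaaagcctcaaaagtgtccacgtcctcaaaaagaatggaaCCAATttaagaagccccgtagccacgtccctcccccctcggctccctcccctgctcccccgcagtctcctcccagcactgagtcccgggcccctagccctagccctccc
*Col3a1* chr1:45311288-45311537 (plus strand): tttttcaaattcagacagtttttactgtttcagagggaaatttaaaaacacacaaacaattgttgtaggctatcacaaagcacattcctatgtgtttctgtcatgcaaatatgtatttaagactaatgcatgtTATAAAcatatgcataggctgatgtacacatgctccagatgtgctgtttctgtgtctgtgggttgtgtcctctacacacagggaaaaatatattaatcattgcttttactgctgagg
*Col6a3* chr1:90843972-90844221 (minus strand): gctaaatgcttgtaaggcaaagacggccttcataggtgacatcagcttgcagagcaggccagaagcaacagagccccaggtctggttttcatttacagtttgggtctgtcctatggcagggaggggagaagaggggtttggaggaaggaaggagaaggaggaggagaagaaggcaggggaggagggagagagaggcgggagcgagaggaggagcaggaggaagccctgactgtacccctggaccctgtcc
*Col5a3* chr9:20815068-20815317 (minus strand): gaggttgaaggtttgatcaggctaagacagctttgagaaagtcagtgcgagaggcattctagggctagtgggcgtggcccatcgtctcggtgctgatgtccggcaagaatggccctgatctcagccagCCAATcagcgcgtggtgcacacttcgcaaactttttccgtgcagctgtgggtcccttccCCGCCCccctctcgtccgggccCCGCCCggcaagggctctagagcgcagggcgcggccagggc
*Col1a2* and *Col5a3* both held CCAAT (109 and 122 bases before the start) and 2 GC-rich matches each. *Col3a1* held TATAAA 117 bases before the start, and *Col6a3* held no match. Over the 25 windows of the collagen genes (1 gene has 2), CCAAT was found in 32% and GGGCGG in 64%, and over all 32851 windows of the same length in 33.8% and 32.7%. TATAAA was found in 12% and 7.59%. A match is only a run of letters. Among the 4 printed windows, CCAAT and GGGCGG were found in chains on both sides of the comparison. TATAAA was found only in *Col3a1*, on the higher side.

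Matrix cells held the most interstitial collagen transcripts, vascular cells less, and Trf/Mia-high cells the least. Reads on the 30 genes made up 8.55% and 7.28% of all endogenous reads of matrix cells in tumors 1 and 2, 2.34% and 2.22% in vascular cells, and 0.119% and 0.285% in Trf/Mia-high cells. The value of 0.119%, from 6 cells, became 0.276% with classes set by marker means, 0.228% with a class margin of 0 and 0.0793% with a margin of 4. The summed level was 4.23 and 3.80 times as high in matrix as in vascular cells of the same tumor. It was 19.3 and 8.31 times as high in vascular as in Trf/Mia-high cells, the first of these resting on the same 6 cells. The classes did not overlap in the summed level of the tumors, though single cells of different classes did.

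**Figure D1:**
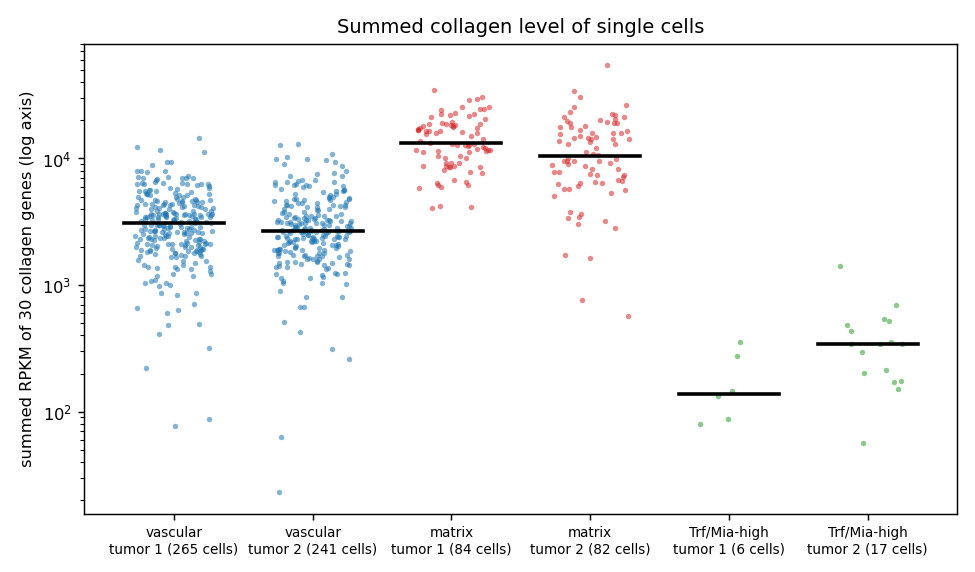
Summed RPKM of the 30 interstitial collagen genes in each cell (points, logarithmic axis) by class and tumor, with the median over cells as a bar. Medians were 3093 and 2687 in vascular, 13135 and 10393 in matrix, and 139 and 343 in Trf/Mia-high cells.

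In tumor 1, none of the 84 matrix cells (0) lay below the vascular median and 1 of 265 vascular cells lay above the matrix median. In tumor 2 these were 4 of 82 matrix and 3 of 241 vascular cells. Matrix cells ranged from 4066 to 34459 RPKM in tumor 1 and from 575 to 54386 in tumor 2, so the low end was deeper in tumor 2. A median vascular cell had reads on 12 of the 30 genes in both tumors, a median matrix cell on 17 and 16, and a median Trf/Mia-high cell on 13 and 13. These counts are at unequal depth. Thinning to 50000 reads left out the cells under that depth (9 and 15 vascular, 5 and 4 matrix, 0 and 2 Trf/Mia-high). In the thinned cells, *Col3a1* for one was read in 50% and 60% of Trf/Mia-high cells and in 100% and 99.1% of vascular cells.

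The comparison of matrix with vascular cells asks which chains carry this difference. Among 23 collagen genes that passed the filter on low values (mean RPKM no lower than 1), 7 rose in matrix cells (*Col1a1*, *Col1a2*, *Col3a1*, *Col8a2*, *Col12a1*, *Col16a1* and *Col26a1*) and none fell (0), by edgeR's quasi-likelihood test on reads summed per tumor and class with a Benjamini-Hochberg adjusted p under 0.05. Over all 11690 genes tested, 3.23% were called higher and 1.76% lower. The fitted difference was positive for 22 of the 23 genes, with a median of 2.64 on the log2 scale against -0.04 over all genes. Some of the 23, such as *Col26a1* and *Col8a2*, passed the filter only through matrix cells. Without the filter 26 of all 30 differences were positive and 4 negative, with a median of 2.26 against -0.05 over all genes. With the tumor as a block the calls over all genes fell from 378 to 193 higher and from 206 to 72 lower, and 6 collagen genes were called, *Col16a1* no longer being among them (adjusted p = 0.0526). DESeq2's Wald test called 17 collagen genes higher and 1 lower, and over all genes 974 higher and 682 lower. With the ERCC totals as library size the all-gene median became 0.64 in place of -0.04, and that of the collagen genes 3.32 in place of 2.64. Then 10 collagen genes were called higher, and over all genes 740 higher and 135 lower.

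The chains of types I and III, the bulk of fibrillar collagen, had the highest levels of the 30 genes in matrix cells. *Col1a1*, the alpha 1 chain of type I, had a mean of 3203 and 2409 RPKM in matrix cells of tumors 1 and 2, 364 and 373 in vascular cells, and 3.10 and 3.03 in Trf/Mia-high cells. Both matrix libraries were above both vascular ones (log2 difference 3.02 ± 0.29 SE, edgeR adjusted p = 0.00749). *Col1a2*, its partner chain, had 2718 and 2472 RPKM in matrix and 441 and 438 in vascular cells (2.64 ± 0.32, edgeR adjusted p = 0.0162). Its call was lost where the classes were set by the means of 10 markers (adjusted p = 0.13; 3.08e-18 to 0.13 over the alternatives other than the threshold). *Col3a1*, the chain of type III, had 3615 and 2930 RPKM in matrix and 988 and 839 in vascular cells (1.94 ± 0.30, edgeR adjusted p = 0.029). Among the 30 genes it had the highest level in vascular cells of both tumors.

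The balance of these chains differed between the classes. The level of *Col3a1* was 2.72 and 2.25 times that of *Col1a1* in vascular cells and 1.13 and 1.22 times in matrix cells. *Col1a1* stood at 0.825 and 0.852 of *Col1a2* in vascular cells and at 1.18 and 0.975 in matrix cells. Neither ratio overlapped between the classes, but the 2 matrix values of *Col1a1* to *Col1a2* were further apart than the lower of them was from the vascular values. With 2 tumors a class, an exact permutation test of a single ratio could not pass 0.05, and none was run.

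**Figure D2:**
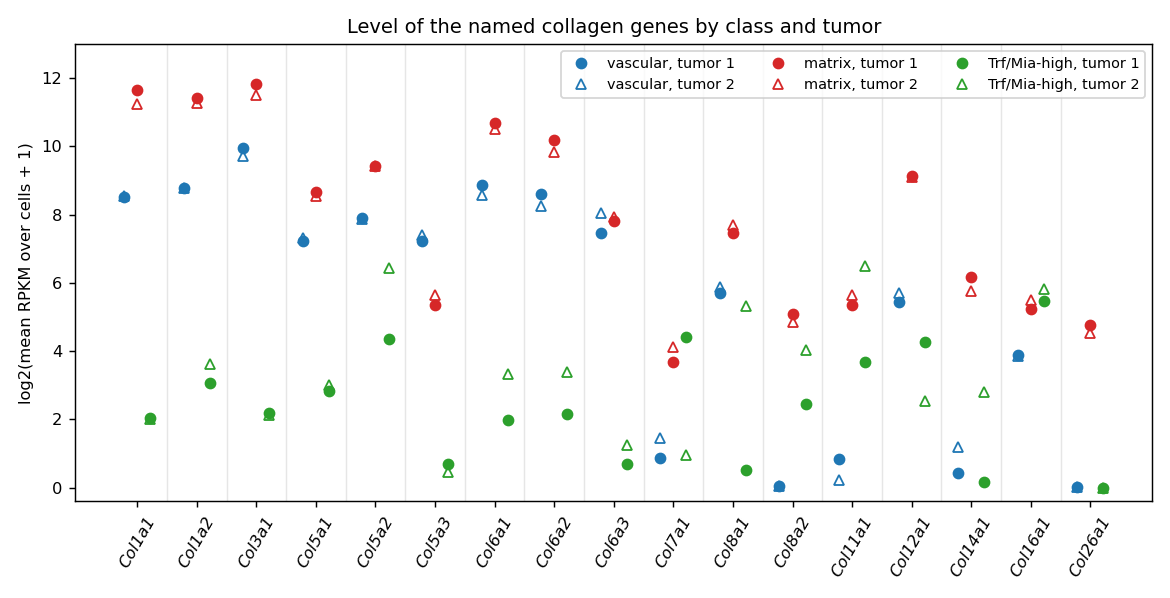
Mean RPKM over cells, as log2(mean + 1), of the 17 collagen genes with a mean of at least 10 RPKM in both tumors of some class (filled circles tumor 1, open triangles tumor 2). *Col1a1*, *Col1a2* and *Col3a1* stood highest in matrix cells, *Col5a3* stood higher in vascular than in matrix cells, and *Col6a3* was at about the same level in both.

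Type V collagen joins type I in fibrils and limits their width. None of its 3 chains (0) was called between matrix and vascular cells, and the chains were not tested against each other. *Col5a1* had 406 and 369 RPKM in matrix and 149 and 159 in vascular cells (log2 difference 1.45 ± 0.28, edgeR adjusted p = 0.0515). *Col5a2* had 684 and 680 RPKM against 240 and 231 (1.65 ± 0.63, adjusted p = 0.277 in the same edgeR fit). *Col5a3*, the chain found in a subset of type V molecules, had 40.2 and 49.3 RPKM in matrix cells and 150.1 and 167 in vascular cells, the reverse order, with both matrix libraries below both vascular ones. It was the single tested collagen gene with a negative difference (-1.69 ± 0.35, edgeR adjusted p = 0.0578). Its difference stayed negative under all 16 tested alternatives, from -1.77 to -1.02, and passed the threshold under 6 of them (adjusted p from 1.72e-06 to 0.125). *Col5a1* passed under 9 of the 16.

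*Col5a3* stood at 1.01 and 1.05 of the level of *Col5a1* in vascular cells and at 0.099 and 0.133 in matrix cells. Vascular cells thus held these chains at nearly equal levels per length. Reads of *Col5a3* were found in all 265 vascular cells of tumor 1 (100%; exact binomial 95% interval 98.6 to 100) and in 98.3% of tumor 2 (95.8 to 99.5), and in 86.9% and 82.9% of matrix cells. In the cells deep enough to be thinned to 50000 reads, the shares after thinning were 99.6% and 99.6% of vascular and 83.5% and 75.6% of matrix cells. Reads are not independent molecules here, so intervals cover counting error only.

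**Figure D3:**
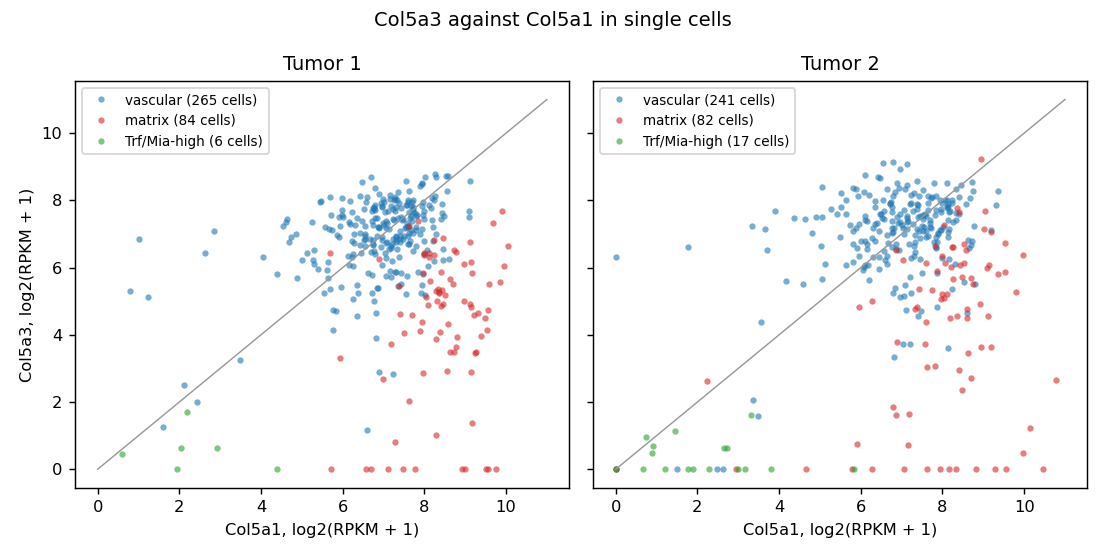
*Col5a3* against *Col5a1* in each cell, both as log2(RPKM + 1), in tumor 1 (left) and tumor 2 (right), with the line of equal levels. Vascular cells (blue) lie around the line, matrix cells (red) lie below it, with some at 0 on the axis of *Col5a3*, and Trf/Mia-high cells (green) lie near the origin.

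The main chains of type VI assemble as 1 heterotrimer. Of the 4 type VI genes tested, none (0) was called between matrix and vascular cells. *Col6a1* had 1659 and 1446 RPKM in matrix and 466 and 379 in vascular cells (log2 difference 1.97 ± 0.64, edgeR adjusted p = 0.191). *Col6a2* had 1157 and 905 against 391 and 305 (1.70 ± 0.46, edgeR adjusted p = 0.12). *Col6a3*, the large chain of the trimer, had 223 and 244 RPKM in matrix and 174 and 263 in vascular cells, so the ranges overlapped (0.20 ± 0.28, adjusted p = 0.885 in edgeR). The level of *Col6a3* was 0.373 and 0.692 of that of *Col6a1* in vascular cells and 0.134 and 0.169 in matrix cells. *Col6a5*, an alternative to *Col6a3*, had 10.8 and 4.05 RPKM in matrix and 0.207 and 0.157 in vascular cells (5.89 ± 1.47, edgeR adjusted p = 0.0988), and 46.4% and 22% of matrix cells had a read of it against 1.89% and 1.66% of vascular cells.

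Of the 3 fibril-associated chains tested, *Col12a1* and *Col16a1* rose in matrix cells. *Col12a1*, a FACIT of dense connective tissue, had 560 and 549 RPKM in matrix and 42.2 and 50.7 in vascular cells (log2 difference 3.74 ± 0.50, edgeR adjusted p = 0.0205), and its call was lost when wells with an *Epcam* read were left out (adjusted p = 0.0528). *Col14a1*, a FACIT that marks subsets of fibroblasts, had 71.1 and 53.0 RPKM in matrix and 0.348 and 1.28 in vascular cells (6.13 ± 1.43, edgeR adjusted p = 0.0836). Despite the size of this difference it was not called. *Col16a1*, a minor FACIT, had 36.5 and 44.4 RPKM against 13.8 and 13.6 (1.75 ± 0.25, edgeR adjusted p = 0.0243), and lost its call under 4 alternatives besides the stricter threshold (adjusted p 0.0526 to 0.0641).

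**Figure D4:**
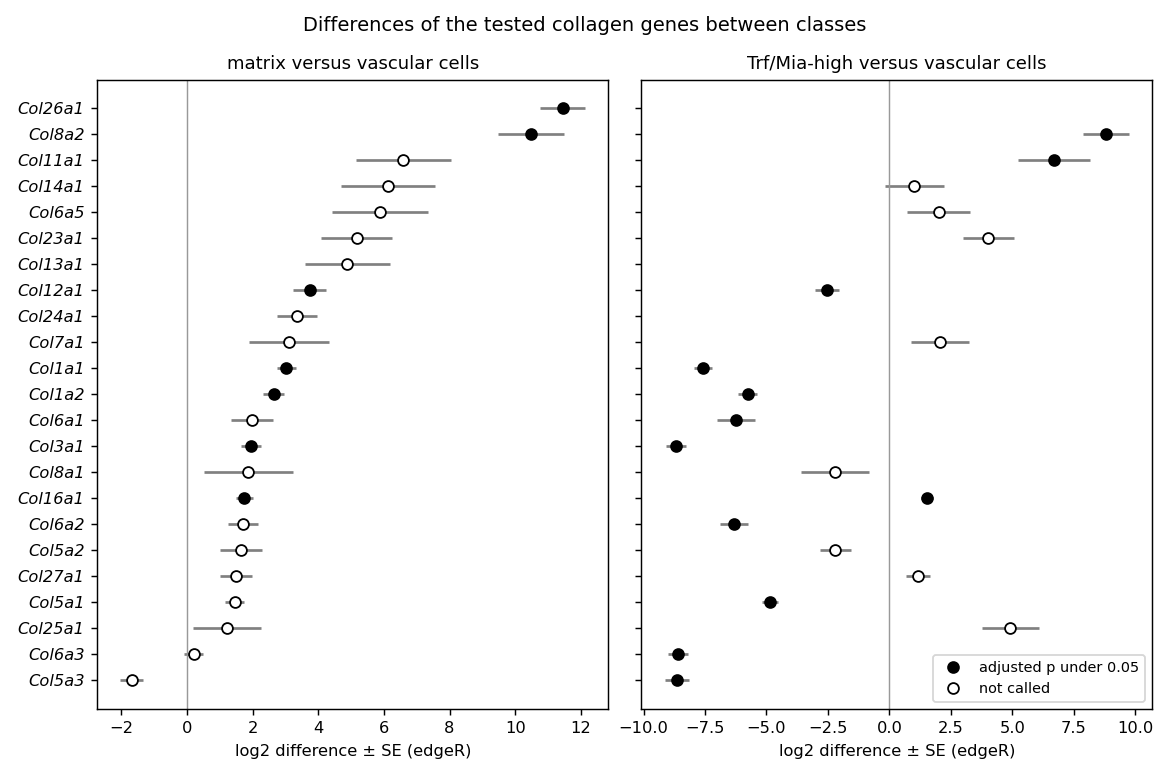
Fitted log2 differences with their SE for the 23 tested collagen genes, matrix versus vascular cells (left) and Trf/Mia-high versus vascular cells (right), filled where the adjusted p was under 0.05. In the right panel *Col13a1*, *Col24a1* and *Col26a1*, which had no read in Trf/Mia-high cells, are left out. On the left all points but *Col5a3* lie above 0. On the right *Col1a1*, *Col1a2*, *Col3a1*, *Col5a1*, *Col5a3*, *Col6a1*, *Col6a2*, *Col6a3* and *Col12a1* are filled below 0, and *Col8a2*, *Col11a1* and *Col16a1* above it.

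Among the less abundant chains, several were close to absent from vascular cells. *Col26a1*, an extracellular matrix protein with short collagen stretches, had 1884 and 1440 reads in matrix and 1 and 2 reads in vascular cells, a ratio of 2734 in CPM, counts scaled to the library total (exact 95% counting interval 935 to 13262), and rose in the test (edgeR adjusted p = 0.00518). *Col8a2*, a chain of short-chain network collagen, had 3444 and 2632 reads in matrix and 5 and 7 in vascular cells (log2 difference 10.5 ± 1.0, edgeR adjusted p = 0.00721). Its partner *Col8a1* had 176 and 208 RPKM in matrix and 51.5 and 58.3 in vascular cells (1.87 ± 1.37, edgeR adjusted p = 0.661). *Col8a2* thus stood at 0.186 and 0.134 of *Col8a1* in matrix cells and at 0.00049 and 0.000565 in vascular cells. *Col7a1*, which forms the anchoring fibrils of epithelial basement zones, had 11.9 and 16.4 RPKM in matrix and 0.810 and 1.73 in vascular cells (3.10 ± 1.22, edgeR adjusted p = 0.287). *Col11a1*, a fibre-forming chain of cartilage and of tumor stroma, had 39.7 and 49 RPKM against 0.802 and 0.172 (6.58 ± 1.45, adjusted p = 0.0709 by edgeR).

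The remaining 6 tested genes (*Col13a1*, *Col23a1*, *Col24a1*, *Col25a1*, *Col27a1* and *Col6a5*) were not called in this comparison. The transmembrane chains *Col13a1* and *Col23a1* had 10.5 and 1.45 RPKM and 11.7 and 5.72 RPKM in matrix cells, and at most 0.408 in vascular cells. *Col24a1*, a minor fibre-forming chain, had 5.09 and 4.08 against 0.549 and 0.615. The sign of *Col25a1* was positive in the fit (1.22 ± 1.02) and negative when classes were set by marker means (-0.14). The 7 genes that were not tested (*Col6a4*, *Col6a6*, *Col17a1*, *Col19a1*, *Col20a1*, *Col22a1* and *Col28a1*) had at most 0.528 RPKM in vascular or matrix cells. Most of their reads came from single cells. All 60 and 105 reads of *Col6a4* in vascular cells came from 1 cell in each tumor, as did the 15 and 31 reads of *Col28a1* in matrix cells.

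By make-up, the fibre-forming chains gave 67.2% and 67.3% of the summed collagen RPKM in vascular cells and 72.9% and 71.8% in matrix cells. Type VI and its relatives gave 29.7% and 28.8% in vascular and 20.7% and 20.8% in matrix cells. The FACITs gave 1.63% and 2.00% in vascular and 4.54% and 5.17% in matrix cells. For each of these 3 groups the tumors of a class lay close together and vascular and matrix cells did not overlap. In Trf/Mia-high cells the order was another one. *Col16a1* was first in tumor 1 with 24% and ranked 3 in tumor 2 with 14.2%, and *Col11a1* was first in tumor 2 with 22.4% and had 6.58% in tumor 1, while *Col1a1*, *Col1a2* and *Col3a1*, the leading chains of matrix cells, were not among the first 6 in either tumor.

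**Figure D5:**
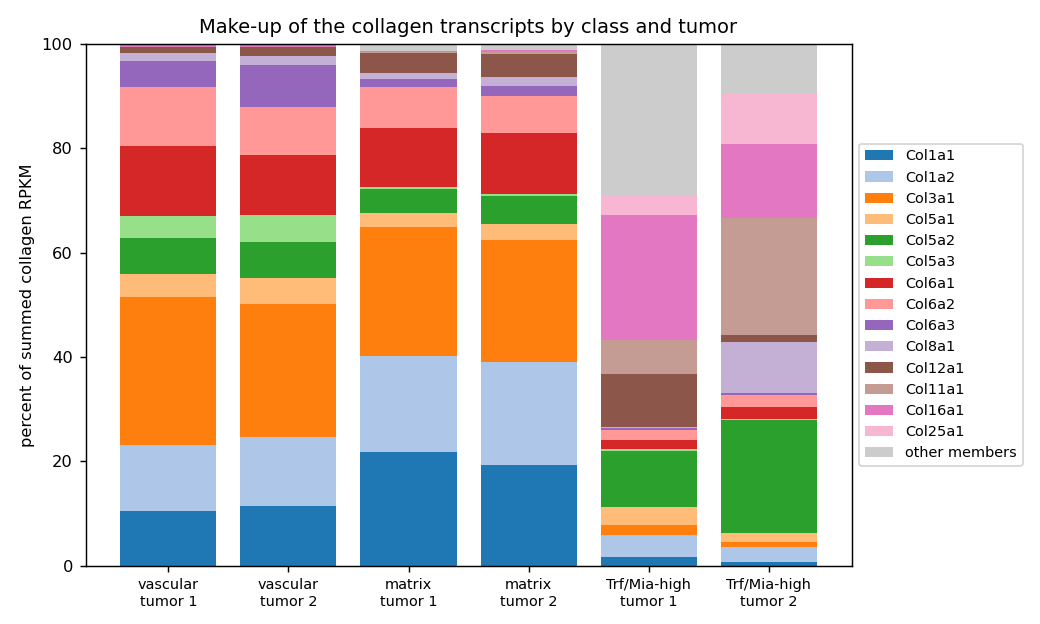
Percent of the summed collagen RPKM by gene, for each class and tumor (stacked bars, each adding to 100). The bars of the 2 tumors are alike in vascular and in matrix cells and unlike in Trf/Mia-high cells, where 6 and 17 cells stand behind them.

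The comparison of Trf/Mia-high with vascular cells asks how far these cells lack interstitial collagen. Here 10 of the 23 collagen genes fell (*Col1a1*, *Col1a2*, *Col3a1*, *Col5a1*, *Col5a3*, *Col6a1*, *Col6a2*, *Col6a3*, *Col12a1* and *Col24a1*) and 3 rose (*Col8a2*, *Col11a1* and *Col16a1*), where over all genes 7.98% were called lower and 4.76% higher. The median fitted difference was -2.54 against -0.14 over all genes, and -2.20 with the 3 genes without a read at their bound. For all 30 genes without the filter it was -2.46 against -0.28. With the tumor as a block, 9 fell and 3 rose: *Col11a1* and *Col24a1* were no longer called (adjusted p = 0.107 and 0.0794 in edgeR) and *Col25a1* was (0.0457). *Col12a1* lost its call when each well was scaled to the same total (edgeR adjusted p = 0.0767). The block took the calls over all genes from 933 to 535 lower and from 556 to 352 higher. Under the ERCC totals the all-gene median was 0.63 and that of the collagen genes -1.88, with 1588 of all genes called higher and 673 lower. The median of the collagen genes was -5.20 in tumor 1 alone and -3.09 in tumor 2 alone, values without a test. The median of tumor 1, whose library held 6 cells, was thus more than 1.5 times the pooled one.

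Chains of types I, III, V and VI were among those that fell. *Col3a1* had 3.53 and 3.37 RPKM in Trf/Mia-high cells, from 31 and 51 reads in all (log2 difference -8.69 ± 0.40, edgeR adjusted p = 0.000697). *Col5a3* had 0.619 and 0.369 RPKM (-8.65 ± 0.50, edgeR adjusted p = 0.00112), and *Col6a3* had 0.604 and 1.40 (-8.59 ± 0.41, edgeR adjusted p = 0.000697). *Col1a1* had 22 and 42 reads (-7.57 ± 0.37, edgeR adjusted p = 0.000741), found in 83.3% and 88.2% of cells. After thinning to 50000 reads it was found in 50% and 60% of the 6 and 15 cells left. Where such low counts came from was not tested. *Col6a1* in tumor 2 rested on 1 cell, which held 90.2% of its 173 reads. *Col24a1* had no read in Trf/Mia-high cells. With a floor of 3 counts over the class its level was at least 6.44-fold lower than in vascular cells. This bound takes reads as independent and leaves out the spread between cells, so it covers counting error only.

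A few chains were higher in Trf/Mia-high than in vascular cells. *Col16a1* had 43.2 and 56.0 RPKM, above both vascular libraries and overlapping the matrix libraries. Against vascular cells its log2 difference was 1.53 ± 0.25 (edgeR adjusted p = 0.0182), and against matrix cells it was not called. *Col11a1*, known from cartilage, had 11.8 and 88.6 RPKM and was found in 50% and 100% of cells (6.68 ± 1.46, edgeR adjusted p = 0.0416). *Col8a2* had 4.45 and 15.4 RPKM (8.80 ± 0.95, edgeR adjusted p = 0.00561). Its reads were in 3 of 6 and 5 of 17 cells, and 1 cell held 62.2% of the 37 reads in tumor 1 and 68.9% of the 344 in tumor 2. When the 8 and 20 vascular, 6 and 11 matrix and 2 and 3 Trf/Mia-high wells with an *Epcam* read were left out, *Col8a2* remained called, and *Col11a1* and *Col16a1* did not (adjusted p = 0.0607 and 0.0662 in edgeR). *Col16a1* was also not called with a class margin of 4 (edgeR adjusted p = 0.0919). *Col5a2* had 19.4 and 85.6 RPKM (-2.20 ± 0.65, adjusted p = 0.0891 by edgeR). *Col25a1*, a transmembrane chain known from neurons, had 6.51 and 37.9 RPKM against 0.612 and 0.700 in vascular cells (4.92 ± 1.18, adjusted p = 0.052 by edgeR). The mean of *Col7a1* was 20.1 RPKM in tumor 1 and 0.951 in tumor 2, and 75.9% of its reads in tumor 1 came from 1 cell. *Col17a1*, the hemidesmosome collagen of basal epithelium, had 17.1 and 1.37 RPKM from 2 cells in each tumor, and 1 cell held 99.1% of its 117 reads in tumor 1.

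Set against matrix cells, Trf/Mia-high cells were lower in 12 of the 23 genes (*Col1a1*, *Col1a2*, *Col3a1*, *Col5a1*, *Col5a2*, *Col5a3*, *Col6a1*, *Col6a2*, *Col6a3*, *Col12a1*, *Col24a1* and *Col26a1*), and none (0) was lower in matrix cells. Over all genes 8.1% were called higher in matrix cells and 2.97% lower, so the share of collagen genes in that direction was above that of all genes. *Col1a1* differed by 10.6 ± 0.4 on the log2 scale (edgeR adjusted p = 0.000885). *Col26a1* and *Col24a1*, with no read in Trf/Mia-high cells, were at least 135-fold and 54.8-fold higher in matrix cells. These bounds also cover counting error only and leave out the spread between cells. The median fitted difference was 6.28, and 5.15 with the genes without a read at their bound, against 0.13 over all genes. For all 30 genes without the filter it was 4.63 against 0.13. The ERCC totals ended the call of *Col5a2* (adjusted p = 0.0531 in edgeR). The block also ended it (0.0512) and took the calls over all genes from 947 to 554 higher and from 347 to 183 lower. This comparison shares its libraries with the other 2. *Col11a1*, *Col16a1* and *Col27a1* changed sign between matrix and Trf/Mia-high cells under alternatives of scaling, class rule or well filter (differences of -0.10, 0.22 and 0.35), so no direction is given for them.

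Within a class the chains were not spread evenly over cells. In matrix cells the 10% of cells with the highest level (8 cells in each tumor) held 21.9% and 30.8% of the summed *Col1a1* RPKM, 41.2% and 47.0% of *Col8a1*, 49% and 50.7% of *Col14a1* and 68.7% and 63.2% of *Col8a2*. In vascular cells the highest 10% held 35.5% and 43.7% of *Col1a1* and 21.9% and 22.7% of *Col5a3*, so *Col5a3* was the more even chain there, while the order was the other way round in matrix cells (33.0% and 43.3% of *Col5a3*). *Col8a1* was concentrated in vascular cells as well, with 56.1% and 60.7% in the highest 10% and a median cell at 1.66 and 2.09 RPKM. *Col14a1* was read in 79.8% and 70.7% of matrix cells and 12.5% and 9.13% of vascular cells. After thinning the shares were 75.9% and 65.4% of matrix and 4.3% and 6.64% of vascular cells. *Col26a1* was read in 38.1% and 25.6% of matrix cells, and the highest 10% of these cells held 55.3% and 82.2% of its summed RPKM.

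Over single cells, some chains went together and others did not. These are Spearman correlations of log2(RPKM + 1) over the cells of 1 class and tumor, given as descriptions without a test, since the cells share a plate and a tumor and differ in depth. *Col1a1* and *Col1a2* had 0.927 and 0.913 in matrix cells (n = 84 and 82) and 0.756 and 0.704 in vascular cells (n = 265 and 241). *Col6a1* and *Col6a2*, neighbours on chromosome 10 (chr10:76708792-76726044 and chr10:76595756-76623630, GRCm38.p6), had 0.882 and 0.896 in matrix and 0.756 and 0.695 in vascular cells. *Col1a1* and *Col3a1* had 0.546 and 0.702 in matrix and 0.501 and 0.413 in vascular cells. *Col1a1* and *Col5a3* had only -0.134 and 0.122 in matrix and 0.222 and 0.128 in vascular cells. *Col5a3* and *Col6a3* had 0.450 and 0.472 in matrix and 0.280 and 0.219 in vascular cells. *Col5a3* and *Col6a2* had 0.221 and 0.159 in matrix and 0.421 and 0.345 in vascular cells, the other order. *Col1a1* and *Col14a1* had 0.509 and 0.356 in matrix cells. The correlation of *Col1a1* with the number of endogenous reads was 0.152 and 0.172 in matrix and 0.359 and 0.290 in vascular cells.

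The non-collagen genes whose level over matrix cells was most like that of *Col1a1*, among 11657 compared by the mean of the Spearman correlations in both tumors, were *Sparc* (0.654), *Lrrc15* (0.636), *Ckap4* (0.507), *Cpz* (0.505) and *Ccdc80* (0.501). *Sparc* encodes a collagen-binding matrix protein and *Lrrc15* a membrane protein of activated fibroblasts. For *Col14a1* they were *Fndc1* (0.460), *Dchs1* (0.394), *Lum* (0.387), *Meg3* (0.386) and *Fn1* (0.383), so its likeness to any gene was weaker.

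The genes that modify, fold, cleave and cross-link collagen were taken as a list of 32, of which 29 were tested. Of these, 3 rose in matrix versus vascular cells and none (0) fell, with a median difference of 0.85, where 3.23% of all genes were called higher and 1.76% lower. *Lox*, which oxidises lysines for cross-links, had 1280 and 1405 CPM in matrix and 46.2 and 76.2 in vascular cells (log2 difference 4.45 ± 0.37, edgeR adjusted p = 0.00565). *Fkbp14*, a peptidyl-prolyl isomerase of the endoplasmic reticulum, had 246 and 226 against 76.3 and 85.3 (1.55 ± 0.24, edgeR adjusted p = 0.0298). *Lepre1*, a prolyl 3-hydroxylase now named *P3h1*, had 290.1 and 248 against 129 and 119 (1.12 ± 0.21, edgeR adjusted p = 0.0464). *Serpinh1*, the collagen chaperone, had 566 and 441 against 347 and 300 (0.64 ± 0.22, edgeR adjusted p = 0.229). *P4ha1*, a prolyl 4-hydroxylase subunit, had 219 and 282 against 198 and 211 (0.29 ± 0.25, edgeR adjusted p = 0.738).

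The other named genes of the list were not called between matrix and vascular cells either. *Plod2*, a lysyl hydroxylase, had 149 and 181 CPM against 25.7 and 56.7 (edgeR adjusted p = 0.0844). *Adamts2*, which cleaves the amino-terminal propeptide, had 2193 and 1943 against 999 and 890.0 (edgeR adjusted p = 0.28). *Pcolce*, an enhancer of carboxy-terminal propeptide cleavage, had 1670 and 1368 against 1147 and 899 (edgeR adjusted p = 0.682). In Trf/Mia-high cells 9 of the 29 genes fell and 2 rose against vascular cells, where 7.98% of all genes fell and 4.76% rose. *Pcolce* fell to 3.75 and 11.2 CPM (log2 difference -7.02 ± 0.58, edgeR adjusted p = 0.00289) and *Serpinh1* to 104 and 111 (-1.59 ± 0.23, edgeR adjusted p = 0.0131). *Adamts2* fell by 3.31 ± 0.48 and *Lox* by 5.94 ± 0.48, while *Plod2* rose by 2.19 ± 0.48 (edgeR adjusted p = 0.0126, 0.00269 and 0.0412). Between matrix and Trf/Mia-high cells, 17 of the 29 were higher in matrix cells and 2 lower, against 8.1% and 2.97% of all genes.

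Of 10 collagen receptors, 7 were tested and none (0) was called between matrix and vascular cells in either direction by edgeR, where 3.23% of all genes were called higher and 1.76% lower (1947 genes had an unadjusted p under 0.05). *Itga1*, the collagen-binding integrin alpha 1, had 276 and 287 CPM in matrix and 1189 and 1316 in vascular cells (log2 difference -2.15 ± 0.82, edgeR adjusted p = 0.27). *Itga11*, which pairs with *Itgb1* to bind fibrillar collagen, had 143 and 143 against 9.18 and 12.6 (3.72 ± 1.61, edgeR adjusted p = 0.341). *Mrc2*, an endocytic collagen receptor, had 487 and 493 against 73.4 and 83.8 (2.64 ± 0.59, edgeR adjusted p = 0.0737), and *Ddr2*, a collagen receptor kinase, had 386 and 445 against 539 and 504. In Trf/Mia-high cells 2 of the 7 fell against vascular cells, where 7.98% of all genes did, *Itga1* by 6.46 ± 1.01 (edgeR adjusted p = 0.0164) and *Itga10* by 4.77 ± 0.95 (edgeR adjusted p = 0.0325), the latter named after its values were seen.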

How the data were processed

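Smart-seq2 libraries of single wells had been aligned by the authors to mm10 with STAR as single-end reads and counted on RefSeq genes, without molecular identifiers or strand. The first deposited table holds raw read counts for each gene, without normalization. For the second, the authors used rpkmforgenes to turn them into RPKM, scaled by gene model length and by the well's mappable reads. Depth per well and the wells left out are given in the results.

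The 30 genes, the gene lists and the tests were chosen with earlier results of these data known. Counts were summed per tumor and class (6 libraries of 1612649 to 54945115 reads on tested genes). The 11690 genes whose mean RPKM in classed cells reached 1 were tested with edgeR 4.0.16 (R 4.3.3, TMM, glmQLFit, glmQLFTest, class as the only term, Benjamini-Hochberg adjusted p under 0.05). Cells are not replicates, and p-values measure the spread between 2 tumors. The 3 libraries of a tumor share an animal and are thus paired by design. Their deviations from class means correlated by 0.164 (vascular and matrix), 0.0621 (vascular and Trf/Mia-high) and 0.0296 (matrix and Trf/Mia-high). The fit was tested on simulated data. With 2 tumors, a gene that was not called is not shown to be equal between classes. Alternatives were DESeq2 1.42.0 and its size factors, other gene and well filters, class rules, scalings, the tumor as a block and each tumor left out.

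Named genes were those with a mean of at least 10 RPKM in both tumors of a class, a fixed set from the 2 pathway lists with up to 3 genes a direction called between matrix and vascular cells, and the 5 genes most like *Col1a1* or *Col14a1*. Other members are given by counts, or by values where one stood out. Doublets had been excluded at the sort by the authors, and no caller was run. No 2 wells had identical counts. Sequences are RefSeq's for GRCm38.p6.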

Additional observations from a re-analysis of the deposited data

Results flagged for a closer look

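Collagen reads were also present in wells that no comparison used. In the 41 wells under 10000 reads, 1.65% of the endogenous reads (1657 of 100255) lay on the 30 genes. The 32 cells without a class had a median summed collagen level of 2501 RPKM in tumor 1 (18 cells) and 626 RPKM in tumor 2 (14 cells), with ranges from 21.8 to 14858 and from 12.2 to 10253. Their median share of ERCC reads was 21.4%.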

How the results depend on the processing

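No difference of a called collagen gene changed its direction under any of the 16 tested alternatives or when either tumor was left out. Of the 7 genes called higher in matrix than in vascular cells, the count became 17 with DESeq2's Wald test, 14 with classes set by marker means (488 higher and 303 lower over all genes) and 0 at an adjusted p of 0.001. The count of genes called lower there, 0 in the reported fit, became 1 (*Col5a3*) with DESeq2's Wald test, with no filter on genes, with each well scaled to the same total, with a class margin of 0, with marker means and with cycling wells left out. With no filter, 30 genes were tested. Of the 3 genes called higher in Trf/Mia-high than in vascular cells, the count became 5 with DESeq2's Wald test, 6 with no filter on genes, 5 with the ERCC totals, 5 with each well scaled to the same total, 1 without wells holding an *Epcam* read, 2 with a class margin of 4 and 0 at an adjusted p of 0.001. The 10 called lower there became 3 at that threshold. The 12 called higher in matrix than in Trf/Mia-high cells became 2 at that threshold, and the count called lower, 0, became 1 with DESeq2's Wald test and 1 with marker means (*Col25a1*). Other causes of these moves than the stricter threshold and the larger set of genes were not tested. The tumor as a replicate block moved these counts to 6 and 0, 3 and 9, and 11 and 0, with the calls it changed given above. Without replicate 1 or 2 no residual spread is left, so no calls were made. The median differences of the collagen genes were then 2.53 and 2.70 (matrix versus vascular), -3.09 and -5.20 (Trf/Mia-high versus vascular), and 5.93 and 8.91 (matrix versus Trf/Mia-high). Over all genes DESeq2 called 974 higher and 682 lower (matrix versus vascular), 1260 and 1795 (Trf/Mia-high versus vascular), and 1815 and 1146 (matrix versus Trf/Mia-high), and at an adjusted p of 0.001 edgeR called 0 and 0, 5 and 31, and 8 and 1. The share of reads on the collagen genes stayed within the SD of the tumors under every alternative tried except the mean over cells for vascular cells (2.15% against 2.28%). These are means of the tumors, and the moves in tumor 1 alone are given above. The median share over cells was not among these alternatives. It was lower, at 1.95% and 1.77% in vascular, 7.82% and 6.09% in matrix, and 0.0892% and 0.239% in Trf/Mia-high cells of tumors 1 and 2. The median over cells lay below the mean RPKM by more than that SD for 19 of 27 gene and class pairs. The Trf/Mia-high libraries held 1612649 and 3482766 reads from 6 and 17 cells, with a median depth per cell of 254778 reads against 252178 in matrix and 197962.5 in vascular cells, so their smaller totals come with fewer cells.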
